A study of Mus musculus with 6 samples.

Results

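The G1 cyclins, kinases and cell cycle inhibitors described here are 10 genes that govern whether a cell enters another round of division: *Ccnd1*, *Ccnd2*, *Ccnd3*, *Cdk4*, *Cdk6*, *Rb1*, *Rbl2*, *Cdkn1b*, *Cdkn1a* and *Cdkn2c*. They were taken by gene symbol from the deposited expression table, which listed 9 of the 10 among 11339 genes. *Cdkn2c*, which encodes the inhibitor p18Ink4c, was not listed. The table holds only genes above a minimum read count, chosen by the authors, in nearly all samples, so no level of *Cdkn2c* could be given. A gene above that minimum in a single genotype would not be listed, so absence from the table does not tell the genotypes apart.

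D-type cyclins bind the kinases CDK4 and CDK6, and the active complexes phosphorylate the retinoblastoma protein, encoded by *Rb1*, and its relative p130, encoded by *Rbl2*. Phosphorylation loosens the hold of these pocket proteins on E2F transcription factors, which then switch on genes for DNA replication. The inhibitors p27Kip1 (*Cdkn1b*) and p21Cip1 (*Cdkn1a*) bind cyclin-CDK complexes, whereas p18Ink4c binds CDK4 and CDK6. In the developing retina cyclin D1 is abundant in dividing progenitor cells, p27Kip1 takes part in cell cycle exit, and p27Kip1 remains in mature Muller glia.

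Sequenced RNA came from mouse retina at P14, an age at which most retinal cells no longer divide, with 3 *Mll1KO* and 3 WT samples. *Mll1KO* mice had the genotype MLL1 fl/fl with a transgene that places Cre recombinase in progenitors of the retina, while WT mice were wild type, all on strain C57Bl6/J. Each sample was pooled from 2 retinas. Because the WT mice carried neither Cre nor floxed alleles, effects of these cannot be told apart from those of *Mll1* loss. The library totals behind the RPKM, recovered from the deposited values, were 23836033, 19777205 and 19323512 reads in WT samples a to c. In *Mll1KO* samples a to c they were 23348923, 19855963 and 17961097 reads. The listed genes held 98.4% of the total in each library, so these totals need not be all reads sequenced. Levels are given as RPKM, reads scaled to the length of the gene and to the total reads of the library, so that genes of different length can be set side by side.

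*Mll1* itself, now named *Kmt2a*, had an RPKM of 36.1, 36.9 and 34.6 in WT samples a to c and of 22.9, 20.42 and 22.3 in *Mll1KO* samples a to c. Each *Mll1KO* sample lay below each WT sample (log2 fold change -0.69, limma adjusted p = 2.77e-05). Reads over the whole gene were counted, so the share of cells that lost it cannot be read from these values.

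In *Mll1KO* retinas the D-type cyclin genes *Ccnd2* and *Ccnd3* rose, and the kinase gene *Cdk6* and the inhibitor gene *Cdkn1b* fell. *Ccnd1*, *Cdk4*, *Rb1*, *Rbl2* and *Cdkn1a* did not pass the test. When libraries were scaled to rod or Muller glia genes, *Ccnd2* was at 0.06 and 0.09 on the log2 scale and *Ccnd3* at -0.08 and -0.04. Neither of them was called there, where the median of all genes was -0.31 and -0.27. The call of *Cdkn1b* was lost in 10 of the 17 alternative analyses run for each gene. That of *Cdk6* was lost without WT sample a or b or *Mll1KO* sample b or c. The changes were modest, the group means in *Mll1KO* lying between 69.5% of WT for *Cdk6* and 130.9% of WT for *Ccnd2*. Differences were tested with limma on log2(RPKM + 1), and a gene was called at a Benjamini-Hochberg adjusted p under 0.05 over all 11339 genes. Of the 9 listed members 4 were called, 2 higher and 2 lower. Over all genes 23.3% were called, 8.81% higher and 14.5% lower. The groups were free of overlap, 3 values against 3, in 5 of the 9 members and in 41.1% of all genes. The median log2 fold change was -0.04 over the members and -0.03 over all genes. These p-values measure the difference against the spread between the samples at hand, which limma draws for each gene towards a trend over all genes. The number of members called moved with the libraries used, and so did the share of all genes called. It was 0 without WT sample a or without WT sample b, where 17.4% and 15.0% of all genes were called, and 1 without *Mll1KO* sample b, where 17.2% were. Without *Mll1KO* sample a or c it was 2, beside 22.4% and 15.5% of all genes, and without WT sample c it was 3, beside 19.2%. At an unadjusted p under 0.05 there were 5 and 4 members without WT sample a and WT sample b in the same limma fits, beside 33.0% and 30.3% of all genes, and in the comparison of all libraries there were 5, beside 36.9% of all genes. In bulk RNA a smaller number of cells that express a gene and less RNA per cell cannot be told apart.

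Levels of the 9 members lay above and below the median RPKM of all listed genes, which was 9.41. In WT the order was *Cdkn1b* at 16.8 ± 0.268 (SD, n = 3), *Cdk4* at 11.9 ± 0.394, *Rb1* at 9.86 ± 0.483, *Rbl2* at 9.57 ± 0.365, *Ccnd1* at 6.91 ± 0.421, *Ccnd3* at 5.26 ± 0.164, *Cdkn1a* at 4.24 ± 0.284, *Ccnd2* at 3.02 ± 0.384 and *Cdk6* at 2.29 ± 0.423. Among neighbours in this order, *Rb1* and *Rbl2* were the pair whose 3 values overlapped. *Mll1KO* retinas kept the order except that *Rbl2*, at 9.77 ± 0.384 (SD, n = 3), stood above *Rb1*, at 9.01 ± 0.785. There the values of *Rb1* and *Rbl2* overlapped, and so did those of *Cdkn1a*, at 4.13 ± 0.81, and *Ccnd2*, at 3.95 ± 0.229. The member with the highest RPKM thus encodes an inhibitor and the one with the lowest a kinase, *Cdk6*, whose mean exceeded that of 5.40% of listed genes. This order rests on the gene lengths behind the RPKM, which are shorter than the annotated exon bases for *Ccnd1* (3835 against 4709), *Ccnd2* (5701 against 9409), *Cdk6*, *Rbl2* and *Cdkn1a*. With annotated exon length in their place the WT order was the same, while in *Mll1KO* retinas *Ccnd3* stood above *Ccnd1* and *Rb1* above *Rbl2*. The number of reads behind 1 value of a member ranged from 108 for *Cdk6* to 1831 for *Cdkn1b*. The value of 108 was in *Mll1KO* sample b, where the lowest count of any listed gene was 100, so *Cdk6* lay near the minimum for listing.

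**Figure D1:**
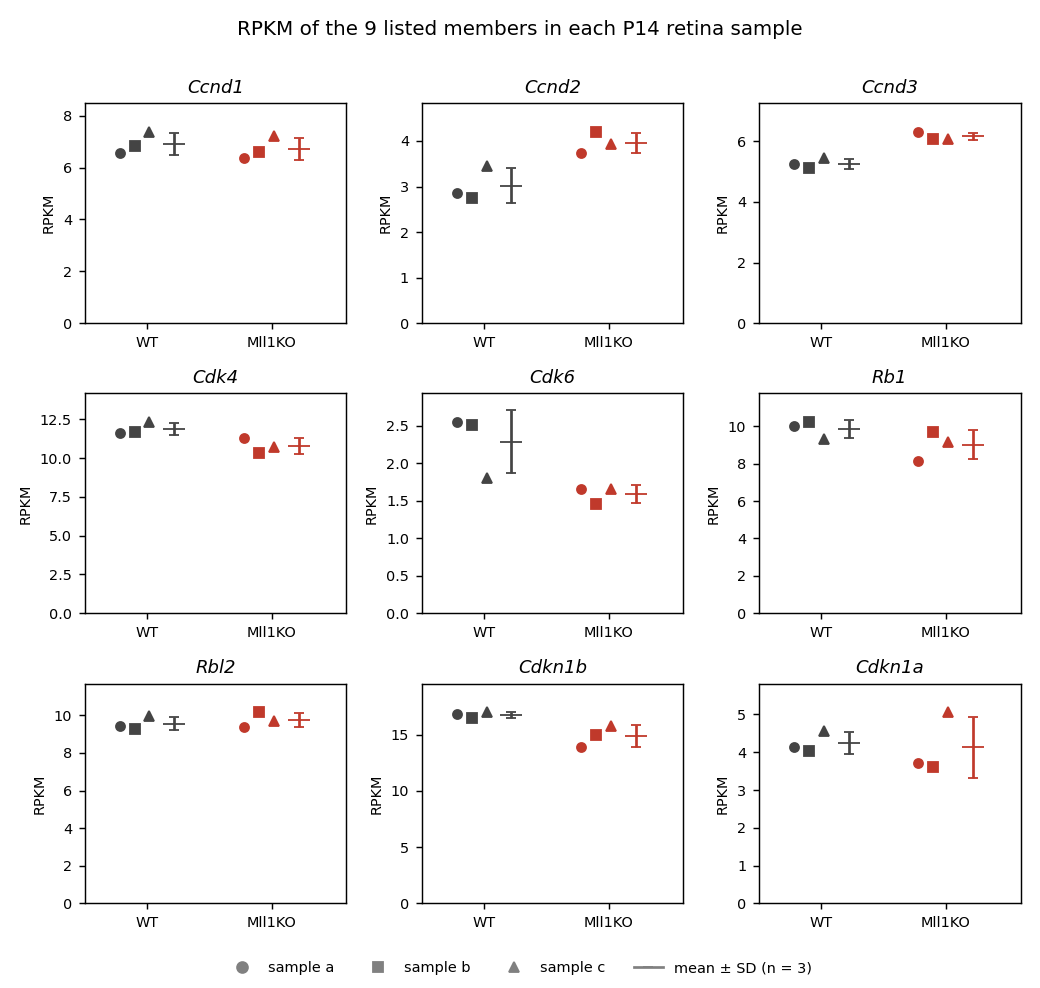
RPKM (vertical axes, each from 0) of the 9 listed members in WT and *Mll1KO* samples. Each symbol is 1 sample, and the bar is the mean with its SD (n = 3). *Ccnd2* and *Ccnd3* lie higher in all *Mll1KO* samples, *Cdk6*, *Cdkn1b* and *Cdk4* lie lower, and the groups overlap in the other 4 genes. *Ccnd3* was reversed to -0.08 in log2 fold change under the rod scaling and -0.04 under the Muller glia scaling. The median of all genes was -0.31 and -0.27 there.

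*Ccnd2* (ENSMUSG00000000184; chromosome 6 from 127125162 to 127152193 in GRCm38, minus strand) encodes cyclin D2. Its RPKM was 2.86, 2.74 and 3.46 in WT samples a to c and 3.74, 4.20 and 3.93 in *Mll1KO* samples a to c. Every *Mll1KO* sample exceeded every WT sample, with WT sample c the nearest to the *Mll1KO* range. The log2 fold change was 0.30 with an SE of 0.07 (limma adjusted p = 0.0161). Leaving out WT sample a, WT sample b or *Mll1KO* sample b took the limma adjusted p to 0.0586, 0.0649 and 0.0537, at log2 fold changes of 0.28, 0.25 and 0.27. The rod and Muller glia scalings took it to 0.459 and 0.232, at 0.06 and 0.09. Over all 17 alternatives run for each gene, which leave out the one that kept every line of the table, the adjusted p ran from 0.00484 to 0.459. Antisense transcripts overlap 7.86% of the exon bases of *Ccnd2*, and since the use of strand in counting is not stated, their reads cannot be told apart from its own.

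*Ccnd3* (ENSMUSG00000034165; chromosome 17 from 47505051 to 47599691, plus strand) encodes cyclin D3. Its RPKM was 5.24, 5.11 and 5.43 in WT samples a to c against 6.30, 6.08 and 6.08 in *Mll1KO* samples a to c. The groups were well apart, the gap between them being larger than the range within either. This corresponds to 117.0% of WT and a log2 fold change of 0.19 with an SE of 0.05 (limma adjusted p = 0.0218). Without WT sample a, WT sample b, *Mll1KO* sample a or *Mll1KO* sample c the limma adjusted p was 0.0546, 0.0865, 0.0518 and 0.0556, while the log2 fold change stayed between 0.18 and 0.20. Over all 17 alternatives the adjusted p ran from 0.00557 to 0.554. Exons of *Bysl*, on the other strand, cover 4.11% of the exon bases of *Ccnd3*.

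*Ccnd1* (ENSMUSG00000070348; chromosome 7 from 144929931 to 144939925, minus strand), which encodes cyclin D1, had the highest RPKM of the D-type cyclin genes in both genotypes. With annotated exon length its level in *Mll1KO* retinas was 5.47 ± 0.355, under that of *Ccnd3* at 6.16 ± 0.125, and in WT retinas 5.63 ± 0.343, overlapping *Ccnd3* at 5.26 ± 0.164 (SD, n = 3 each). WT samples a to c had an RPKM of 6.54, 6.82 and 7.37, and *Mll1KO* samples a to c had 6.35, 6.59 and 7.20. These ranges overlapped almost fully. The log2 fold change was -0.04 with a 95% interval of -0.17 to 0.10 (limma adjusted p = 0.719), and it was 0.01 without WT sample c. Exons of the neighbouring gene *LTO1*, on the opposite strand, share 23.4% of its exon bases, so part of its reads could belong to either gene.

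Set against each other within a sample, *Ccnd1* and *Ccnd2* took shares of the D-type cyclin sum that did not overlap between genotypes. These shares do not depend on how libraries are scaled but do depend on the gene lengths, and no test was applied to them. *Ccnd1* made up 44.7%, 46.5% and 45.3% of the summed RPKM of the 3 D-type cyclin genes in WT samples a to c and 38.75%, 39.1% and 41.8% in *Mll1KO* samples a to c. *Ccnd2* made up 19.5%, 18.7% and 21.3% in WT and 22.8%, 24.9% and 22.8% in *Mll1KO*. Of these shares that of *Ccnd1* was lower and that of *Ccnd2* higher in *Mll1KO*. Over all genes the RPKM values of 41.1% did not overlap between genotypes. The share of *Ccnd3* was 34.7% ± 1.203 in WT retinas and 36.6% ± 1.61 in *Mll1KO* retinas (SD, n = 3 each), with overlap. The 3 genes together reached an RPKM of 14.6, 14.7 and 16.3 in WT and 16.4, 16.9 and 17.2 in *Mll1KO*, WT sample c lying just under the lowest *Mll1KO* sample.

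**Figure D2:**
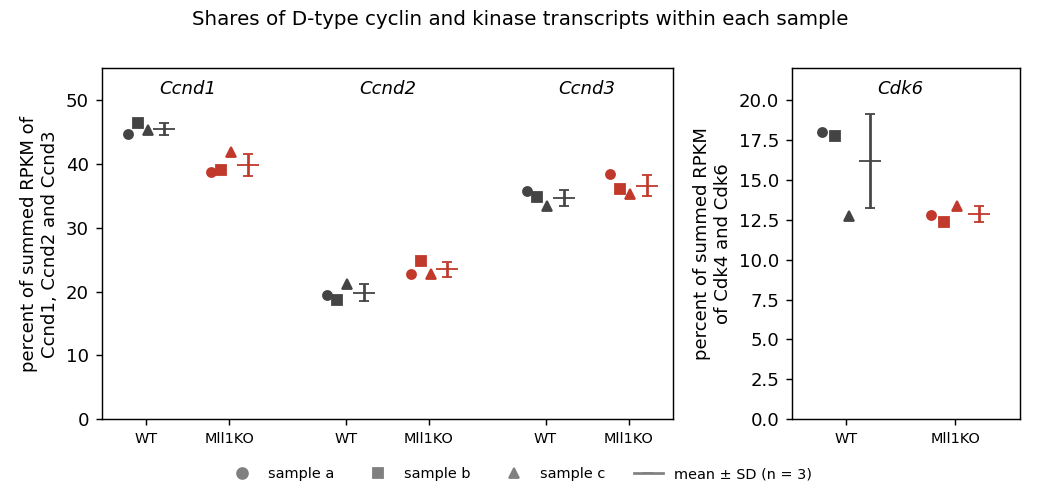
Percent of the summed RPKM of *Ccnd1*, *Ccnd2* and *Ccnd3* taken by each gene (left), and percent of the summed RPKM of *Cdk4* and *Cdk6* taken by *Cdk6* (right), in each sample. Bars are the mean with its SD (n = 3). The share of *Ccnd1* lies at 44.7% or above in WT and at 41.8% or below in *Mll1KO*, and the share of *Cdk6* in WT sample c, at 12.8%, lies among the *Mll1KO* samples.

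*Cdk6* (ENSMUSG00000040274; chromosome 5 from 3341485 to 3531008, plus strand) encodes a kinase partner of the D-type cyclins. WT samples a to c had an RPKM of 2.55, 2.52 and 1.80, and *Mll1KO* samples a to c had 1.66, 1.46 and 1.65. The groups did not overlap, but WT sample c stood nearer to the *Mll1KO* samples than to the other WT samples. *Cdk6* fell by 0.34 on the log2 scale with an SE of 0.09 (limma adjusted p = 0.0234). The added 1 RPKM shrinks changes of weakly expressed genes. With a pseudocount of 0.1 the change was larger, at -0.48 (limma adjusted p = 0.0229), and with a pseudocount of 5 smaller, at -0.14. Limma-voom on recovered reads, which differs in more than the pseudocount, gave -0.51 (limma-voom adjusted p = 0.0156). The call was lost without WT sample a, WT sample b, *Mll1KO* sample b or *Mll1KO* sample c (adjusted p by limma of 0.0853, 0.0856, 0.0734 and 0.0542), and without WT sample c the change was -0.45 (limma adjusted p = 0.00202). The RPKM rests on a gene length of 3735 bases, whereas the GENCODE annotation has 13989 exon bases, so the level of *Cdk6* relative to other genes holds for that shorter gene model.

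*Cdk4* (ENSMUSG00000006728; chromosome 10 from 127063534 to 127067920, plus strand) encodes the other kinase of the pair and was the more abundant of them. Its RPKM was 11.6, 11.7 and 12.3 in WT samples a to c and 11.3, 10.3 and 10.7 in *Mll1KO* samples a to c. All *Mll1KO* values were below all WT values, yet the difference did not pass the adjustment over all genes (log2 fold change -0.13, 95% interval -0.24 to -0.01, limma adjusted p = 0.0976). Exons of *Tspan31*, on the opposite strand, overlap 19.7% of its exon bases.

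Together *Cdk4* and *Cdk6* had an RPKM of 14.1, 14.2 and 14.1 in WT samples a to c and of 12.97, 11.7 and 12.4 in *Mll1KO* samples a to c. In RPKM the kinase sum was therefore lower in each *Mll1KO* sample, where the cyclin sum was higher, and these sums, unlike the shares, depend on how libraries are scaled. *Cdk6* accounted for 18.03%, 17.7% and 12.8% of the kinase sum in WT and for 12.8%, 12.4% and 13.4% in *Mll1KO*. WT sample c lay within the *Mll1KO* range of this share, so the genotypes could not be separated by it.

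*Cdkn1b* (ENSMUSG00000003031; chromosome 6 from 134920401 to 134925513, plus strand) lies on the same chromosome as *Ccnd2*, and no other annotated exon overlaps its own. The RPKM of *Cdkn1b* was 16.9, 16.5 and 17.0 in WT samples a to c and 13.9, 15.0 and 15.8 in *Mll1KO* samples a to c. All *Mll1KO* samples were lower, and they were spread more widely (SD 0.955) than the WT samples (SD 0.268). The mean in *Mll1KO* was 88.7% of WT, with a log2 fold change of -0.16 and a 95% interval of -0.28 to -0.05. At a limma adjusted p of 0.0445 the call was close to the threshold, and it was lost in 10 of 17 alternatives, among them TMM factors (limma adjusted p = 0.0959) and each leave-out of 1 library other than *Mll1KO* sample c (limma adjusted p from 0.087 to 0.108 in those 5 fits). Without *Mll1KO* sample c the limma adjusted p was 0.0349, and over all 17 alternatives it ran from 2.11e-05 to 0.141.

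*Cdkn1a* (ENSMUSG00000023067; chromosome 17 from 29090976 to 29100727, plus strand) encodes p21Cip1, an inhibitor induced by p53 after DNA damage. Its RPKM was 4.13, 4.03 and 4.56 in WT samples a to c and 3.72, 3.60 and 5.06 in *Mll1KO* samples a to c. The *Mll1KO* samples surrounded the WT samples, sample c being the highest of all 6 libraries and samples a and b the lowest. With a 95% interval of -0.26 to 0.18 around a log2 fold change of -0.04 (limma adjusted p = 0.799), its standard error of 0.10 was the largest among the 9 members. Without WT sample c, *Mll1KO* sample a or *Mll1KO* sample b its log2 fold change was 0.002, 0.01 and 0.03. The summed RPKM of *Cdkn1b* and *Cdkn1a* was 21.03 ± 0.525 in WT retinas and 19.0 ± 1.66 in *Mll1KO* retinas (SD, n = 3 each), with overlap.

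*Rb1* (ENSMUSG00000022105; chromosome 14 from 73183673 to 73325822, minus strand) had an RPKM of 10.04, 10.2 and 9.31 in WT samples a to c and of 8.16, 9.70 and 9.17 in *Mll1KO* samples a to c. *Mll1KO* sample a was the lowest, and *Mll1KO* sample b lay among the WT samples. The log2 fold change was -0.12 with a 95% interval of -0.27 to 0.03 (limma adjusted p = 0.221). Without *Mll1KO* sample a it was -0.06, less than the standard error of 0.07 in the comparison of all libraries. *Rbl2* (ENSMUSG00000031666; chromosome 8 from 91070057 to 91123844, plus strand) had 9.42, 9.29 and 9.98 in WT and 9.40, 10.2 and 9.72 in *Mll1KO*. Its ranges overlapped, at a log2 fold change of 0.03 with a 95% interval of -0.09 to 0.14 (limma adjusted p = 0.745). Without *Mll1KO* sample b the log2 fold change of *Rbl2* was 3.3e-05, and without WT sample c it was 0.055. Genes on the opposite strand overlap 14.9% of the exon bases of *Rb1* and 20.97% of those of *Rbl2*. With libraries scaled to rod or Muller glia genes *Rbl2* was at -0.26 and -0.22.

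RPKM is relative to all reads of a library, and rod genes took a larger part of the *Mll1KO* libraries. The libraries were also scaled to an equal sum over rod genes or over Muller glia genes, which moved the all-gene median of log2 fold changes from -0.03 to -0.31 and -0.27. Relative to these medians *Ccnd2* was higher by 0.37 and 0.36, *Ccnd3* higher by 0.23 in both, *Cdk6* at -0.23 and -0.25, and *Cdkn1b* at -0.15 in both. Against WT itself *Ccnd2* was then at 0.06 and 0.09 and *Ccnd3* at -0.08 and -0.04, neither called (limma adjusted p = 0.459, 0.232, 0.251 and 0.554), so the direction of *Ccnd3* was reversed. The other 7 of the 9 members were called lower under both scalings, as were 84.1% and 79.9% of all genes, so their count is close to the share over all genes. With TMM, RLE or upper-quartile factors, which placed the median of all genes at -0.0019, 0.00025 and -0.0002, *Ccnd2*, *Ccnd3* and *Cdk6* were called in the same direction and *Cdkn1b* was not, beside 21.3%, 21.2% and 21.3% of all genes. Of the calls over all genes 37.8% were higher with library totals and 51.9% to 53.1% with these factors.

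**Figure D3:**
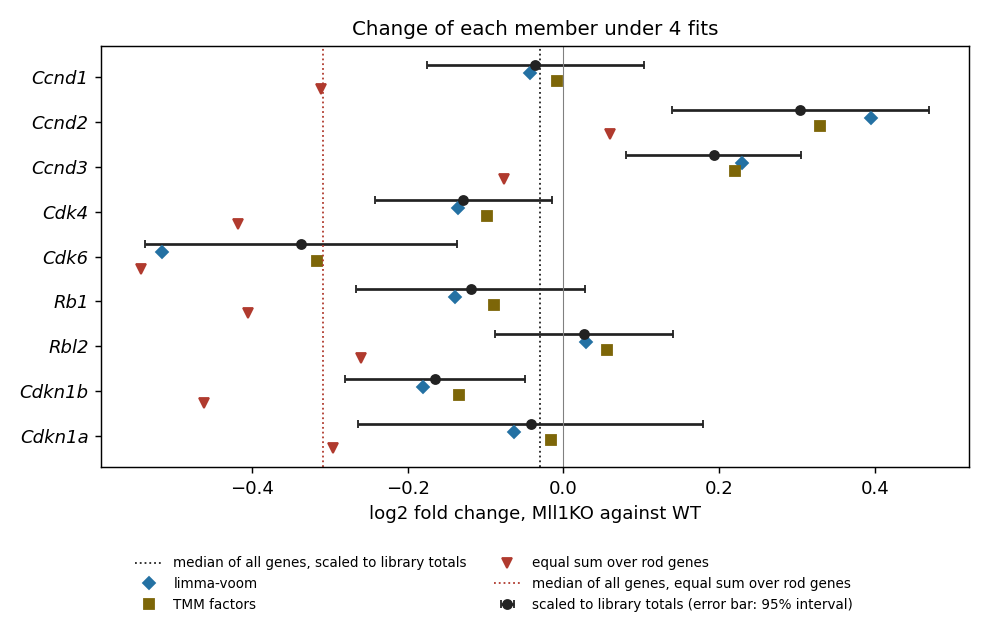
Log2 fold change of *Mll1KO* against WT (horizontal axis) for each member, from limma on log2(RPKM + 1) scaled to library totals (circles, with 95% intervals), to TMM factors or to an equal sum over rod genes, and from limma-voom on log2 CPM. Dotted lines mark the median of all genes, at -0.03 with library totals and -0.31 with the rod scaling. *Ccnd2* and *Ccnd3* lie above, and *Cdk6* and *Cdkn1b* below, the median of their fit in all 4, while *Ccnd3* lies at -0.08, under 0, with the rod scaling.

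Of the inhibitors outside the 10 genes, *Cdkn1c* and *Cdkn2d* were listed, and *Cdkn2a* and *Cdkn2b* were not. *Cdkn1c*, which encodes p57Kip2, the third CIP/KIP inhibitor, had an RPKM of 17.7, 17.1 and 17.96 in WT samples a to c and of 9.83, 12.3 and 12.1 in *Mll1KO* samples a to c. All *Mll1KO* samples were lower by a wide gap, and the decrease (log2 fold change -0.59, SE 0.07, limma adjusted p = 0.000506) was called in all 17 alternatives. *Cdkn2d*, the other gene of this list, which encodes p19Ink4d, a CDK4 and CDK6 inhibitor of postmitotic neurons, was not called, with an RPKM of 14.9 ± 0.916 in WT retinas and 15.1 ± 1.62 in *Mll1KO* retinas (SD, n = 3 each).

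Among the E2F, DP and pocket protein partners 10 of 16 genes were listed, with a median log2 fold change of -0.06. Of these 0 were called higher and 1 lower, beside 8.81% and 14.5% of all genes. The called gene was *E2f3*, an activating E2F factor, at an RPKM of 13.3 ± 0.902 in WT retinas and 10.3 ± 0.992 in *Mll1KO* retinas (SD, n = 3 each, log2 fold change -0.34, SE 0.07, limma adjusted p = 0.00903), called in all 17 alternatives. The activators *E2f1* and *E2f2*, the repressors *E2f7* and *E2f8*, and *Rbl1* and *Lin9* were not listed. The most abundant partner, chosen after its values were seen, was *E2f4*, a factor that binds p130 in resting cells, with 38.3 ± 3.73 in WT retinas and 36.0 ± 4.21 in *Mll1KO* retinas (SD, n = 3 each), which was not called (limma adjusted p = 0.495).

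Genes of the later cell cycle were mostly absent from the table. Of these, 5 of 15 other cell cycle cyclin and CDK genes were listed (*Ccna2*, *Cdk7*, *Ccnh*, *Mnat1* and *Cdc25b*), none was called by limma or limma-voom, and 0 had an unadjusted p under 0.05. The median log2 fold change of these 5 genes was 0.02. *Cdk1*, *Cdk2*, *Ccnb1*, *Ccnb2*, *Ccne1* and *Ccne2* were among those not listed. *Ccna2*, the S and G2 phase cyclin A2, had an RPKM of 7.37, 7.45 and 6.02 in WT samples a to c and of 8.33, 7.36 and 6.96 in *Mll1KO* samples a to c, with overlap, and its log2 fold change of 0.11 became -0.17 and -0.14 under the rod and Muller glia scalings. For mitosis 5 of 18 genes were listed, without *Mki67*, *Top2a* or *Aurkb*, with a median log2 fold change of 0.15, which ran from -0.06 under the rod scaling to 0.25 with limma-voom and was 0.08 without *Mll1KO* sample a. Limma called 0 of the 5 and limma-voom 1, and 2 had an unadjusted p under 0.05 by limma. These genes, named after their values were seen, were *Bub1b* at 0.25, *Plk1* at 0.18, *Cenpe* at 0.15, *Mad2l1* at 0.003 and *Prc1* at -0.17, the last called lower by limma-voom. The unadjusted p was under 0.05 for *Cenpe* and *Prc1*. Without *Mll1KO* sample a *Cenpe* was at 0.08 (limma unadjusted p = 0.169) and *Plk1* at 0.08. Under the rod and Muller glia scalings 1 and 2 of the 5 genes lay above 0, and *Prc1*, at -0.31 and -0.29, and *Mad2l1*, at -0.24 and -0.21, were called lower. *Bub1b* was called higher without *Mll1KO* sample a (0.47, limma adjusted p = 0.00387), and *Prc1* lower without WT sample c (-0.21, limma adjusted p = 0.031) and with a pseudocount of 0.1 (-0.33, limma adjusted p = 0.0397).

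DNA replication genes, many of them E2F targets, were better covered, with 18 of 30 listed and a median log2 fold change of -0.02. There 0 were called higher and 1 lower, beside 8.81% and 14.5% of all genes. The called gene *Mcm6*, which encodes a subunit of the replicative helicase, had an RPKM of 2.09, 1.99 and 2.01 in WT samples a to c and of 1.68, 1.63 and 1.56 in *Mll1KO* samples a to c. Its log2 fold change was -0.21 with an SE of 0.05 (limma adjusted p = 0.0142), with an adjusted p of 0.0507 without WT sample a and 0.0525 without *Mll1KO* sample c. The summed RPKM of the 18 genes was 108.2 ± 1.63 in WT retinas and 105.6 ± 1.88 in *Mll1KO* retinas (SD, n = 3 each).

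Of the genes that control turnover of p27Kip1 and cyclins, 15 of 16 were listed, at a median log2 fold change of -0.01. Among them 2 were called higher and 3 lower, beside 8.81% and 14.5% of all genes. *Rnf123*, which encodes the ubiquitin ligase KPC1 that targets cytoplasmic p27Kip1 in G1, rose from an RPKM of 27.3 ± 1.28 to 36.8 ± 4.47 (SD, n = 3 each, log2 fold change 0.41, limma adjusted p = 0.00416). *Usp2*, a deubiquitinase known to stabilise cyclin D1, rose from 17.6 ± 2.03 to 25.5 ± 2.34 (SD, n = 3 each, log2 fold change 0.51, limma adjusted p = 0.00252). Under the rod and Muller glia scalings *Rnf123* was higher by 0.10 and 0.14 and no longer called (limma adjusted p = 0.238 and 0.096). Lower were *Fbxw7* (log2 fold change -0.20, limma adjusted p = 0.0143), whose product marks cyclin E for destruction, and the ubiquitin ligase genes *Cul4a* (-0.21, limma adjusted p = 0.00945) and *Ddb1* (-0.14, limma adjusted p = 0.0375). *Fbxw7* lost its call without WT sample b or *Mll1KO* sample b (limma adjusted p = 0.0624 and 0.0505). *Ddb1* lost it in 10 of 17 alternatives, among them TMM factors (limma adjusted p = 0.0906) and every leave-out of 1 library other than WT sample a, with adjusted p up to 0.136.

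In the p53 and p21 pathway 15 of 20 genes were listed, with a median log2 fold change of -0.06. Again 2 were called higher and 3 lower, beside 8.81% and 14.5% of all genes. *Ddit4*, a stress-induced inhibitor of mTORC1 signalling, rose from an RPKM of 58.6 ± 9.44 to 85.1 ± 6.96 (SD, n = 3 each, log2 fold change 0.54, limma adjusted p = 0.00556), and under the rod scaling it was at 0.23 and not called (limma adjusted p = 0.0643). *Btg2*, an antiproliferative p53 target, was at 0.23 (limma adjusted p = 0.0353), a call lost in 8 of 17 alternatives with a reversed direction under the rod and Muller glia scalings (-0.08 and -0.04). Without WT sample a, WT sample b, *Mll1KO* sample a or *Mll1KO* sample c the limma adjusted p of *Btg2* was 0.108, 0.0548, 0.0964 and 0.105. The apoptosis genes *Bbc3*, which encodes PUMA, and *Bax* fell, *Bbc3* from 6.25 ± 0.0334 to 4.18 ± 0.786 (SD, n = 3 each, log2 fold change -0.50, limma adjusted p = 0.00482) and *Bax* from 34.3 ± 1.37 to 28.4 ± 0.478 (SD, n = 3 each, -0.26, limma adjusted p = 0.00197). *Mdm4*, a negative regulator of p53, was lower by a log2 fold change of -0.17 (limma adjusted p = 0.0361), a call lost in 9 of 17 alternatives. Among these were the fits without WT sample b or c or *Mll1KO* sample b or c (limma adjusted p from 0.0741 to 0.138). TMM factors (limma adjusted p = 0.068) and the replicate block (limma adjusted p = 0.0718) were others.

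CDKs and cyclins that act outside the division cycle were all listed, at a median log2 fold change of -0.02. Of these 23 genes 2 were called higher and 2 lower, beside 8.81% and 14.5% of all genes. *Cdk14*, a membrane-bound kinase of WNT signalling, fell from an RPKM of 10.2 ± 0.238 to 7.54 ± 0.307 (SD, n = 3 each, log2 fold change -0.39, limma adjusted p = 0.000585). *Ccnt2*, a cyclin partner of the transcription kinase CDK9, was at -0.16 (limma adjusted p = 0.0449) and lost its call in 10 of 17 alternatives, with TMM factors (limma adjusted p = 0.0933) and every leave-out of 1 library other than *Mll1KO* sample a (limma adjusted p from 0.0742 to 0.15). *Cdk18* (log2 fold change 0.34, limma adjusted p = 0.0137) and the Mediator kinase gene *Cdk19* (0.21, limma adjusted p = 0.018) were higher. *Cdk18* lost its call without WT sample b or *Mll1KO* sample c, at limma adjusted p of 0.0545 and 0.0541, and under the rod and Muller glia scalings (0.12 and 0.15). *Cdk19* lost it without WT sample a or c or *Mll1KO* sample b or c (limma adjusted p from 0.0582 to 0.0664), and was at -0.09 and -0.06 under the rod and Muller glia scalings. With the log2 sum of pigment epithelium markers as a term, neither *Cdk18* nor *Cdk19* was called (limma adjusted p = 0.0501 and 0.074).

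Marker genes of several retinal cell types differed between the groups. The counts called in each marker list stand beside 8.81% of all genes called higher and 14.5% called lower. Muller glia markers, 16 of 16 listed, included 6 genes called higher, 3 called lower and a median log2 fold change of 0.05. Their summed RPKM was 1492, 1493 and 1613 in WT samples a to c and 1821, 1885 and 1864 in *Mll1KO* samples a to c, with *Glul* the most abundant. The groups did not overlap, *Abca8a* being the highest marker at 0.55 and *Lhx2* the lowest at -0.49. Rod markers, 16 of 16 listed with 12 called higher and 1 lower, summed to an RPKM of 18053, 17109 and 17601 in WT and 21827, 22273 and 21575 in *Mll1KO*, with *Pde6a* highest at 0.48 and *Nr2e3* lowest at -0.36. Cone markers, 10 of 10 listed with 7 called higher and 1 lower, summed to 539.1, 565.5 and 576.5 in WT and 606.0, 638.5 and 648.5 in *Mll1KO*, led by *Gnb3* at -0.01, or 0.02 with TMM, RLE or upper-quartile factors and 0.005 and 0.009 without WT sample b or *Mll1KO* sample a, with *Arr3* highest at 0.66 and *Opn1sw* lowest at -0.44. Under the rod and Muller glia scalings *Gnb3* was called lower, at -0.33 and -0.29 (limma adjusted p = 0.000144 and 0.000288). The part of these shifts in the changes of the cyclin, kinase and inhibitor genes was not tested.

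Markers of inner retinal neurons were lower in part. Of the bipolar cell markers, 12 of 12 were listed and 7 called lower, and they summed to an RPKM of 567.9, 560.6 and 555.1 in WT samples a to c and 469.2, 470.1 and 481.7 in *Mll1KO* samples a to c. *Pcp2* was the highest of this list at 0.07, with -0.24 and -0.21 under the rod and Muller glia scalings and -0.003 without WT sample a, and *Vsx1* its lowest at -0.68. Horizontal cell markers, 8 of 10 listed without *Lhx1* and *Gja10*, had 7 called lower and sums of 227.9, 228.5 and 214.1 in WT and 143.2, 150.0 and 153.3 in *Mll1KO*, with *Ndrg1* both the most abundant and the lowest at -0.78 and *Calb1* the highest at -0.13. Ganglion cell markers, 10 of 12 listed without *Pou4f3* and *Isl2*, had 9 called lower and sums of 611.6, 571.0 and 598.6 in WT and 471.8, 428.7 and 399.9 in *Mll1KO*, with *Sncg* the most abundant, *Slc17a6* the highest at -0.15 and *Pou4f2* the lowest at -0.89. Amacrine cell markers, 12 of 12 listed with 2 called higher and 5 lower, overlapped in their sums, at 470.4 ± 10.8 in WT retinas and 469.9 ± 33.8 in *Mll1KO* retinas (SD, n = 3 each), with *Cck* highest at 0.30 and *Gad2* lowest at -0.49. *Cck* was called without *Mll1KO* sample b (0.51, limma adjusted p = 0.014) and in the replicate block (0.30, limma adjusted p = 0.0412). Over all 17 alternatives its log2 fold change ran from 0.01 to 0.51, and its adjusted p reached 0.948. *Pcp2*, *Calb1* and *Slc17a6*, not called with library totals, were called lower under the rod and Muller glia scalings, with limma adjusted p up to 0.0055. *Cdkn1c*, *Cdk6* and *Cdkn1b* were lower in the same samples as the summed bipolar, horizontal and ganglion cell markers, as is any gene lower in all *Mll1KO* samples. The summed endothelial markers, given below, were lower in these samples as well. Summed amacrine cell markers overlapped between genotypes. The summed rod, cone and astrocyte markers were higher in *Mll1KO*. So were those of Muller glia, where p27Kip1 remains, at 121.1% of WT. The part of these cells in the changes of *Cdkn1c*, *Cdk6* and *Cdkn1b* was not tested.

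Of the remaining lists, astrocyte markers, 6 of 7 listed without *Pax2*, had 4 called higher and 0 lower and summed to an RPKM of 150.2, 138.7 and 163.4 in WT samples a to c and 209.6, 218.6 and 206.9 in *Mll1KO* samples a to c, with *Aldoc* the most abundant, *Gfap* the highest at 0.97 and *Gja1* the lowest at 0.04. *Gja1* was at -0.26 and -0.22 under the rod and Muller glia scalings and at -0.01, -0.09 and -0.09 without WT sample a, WT sample b or *Mll1KO* sample b, none of these called, and it was called higher with the log2 sum of pigment epithelium markers as a term (0.30, limma adjusted p = 0.0414). Endothelial markers, 9 of 10 listed without *Emcn*, had 1 called higher and 3 lower and summed to 103.8, 101.3 and 99.2 in WT and 82.9, 75.3 and 77.0 in *Mll1KO*, *Kdr* being the most abundant and the lowest at -0.73 and *Flt1* the highest at 0.32, not called under the rod and Muller glia scalings (0.04 and 0.07). Both sums were apart between the genotypes, upwards for astrocytes and downwards for endothelium, and each leaned on 1 gene. *Aldoc* had a mean RPKM of 117.0 in WT and 169.1 in *Mll1KO*, within astrocyte sums of 150.8 and 211.7. *Gja1* stood at 19.5 and 19.9. *Kdr* had 37.6 in WT and 22.3 in *Mll1KO*, within endothelial sums of 101.5 and 78.4. *Flt1* and *Tek* were higher in *Mll1KO* and the other listed endothelial markers lower. Microglia markers, 4 of 10 listed without *P2ry12*, *Tmem119* or *Aif1*, overlapped at 17.0 ± 0.258 in WT retinas and 17.1 ± 1.27 in *Mll1KO* retinas (SD, n = 3 each), with 0 called by limma or limma-voom and 0 at an unadjusted p under 0.05, between *C1qb*, the most abundant, at -0.12 and *C1qc* at 0.15. *C1qb* was called without *Mll1KO* sample c (-0.20, limma adjusted p = 0.0495) and under the rod and Muller glia scalings (-0.40 and -0.37, limma adjusted p = 0.000525 and 0.000289), where *C1qc* was at -0.10 and -0.07 and not called. Markers of proliferating progenitor cells were mostly not listed (2 of 12), *Ccna2* as above and the Notch ligand gene *Dll1*, which is not particular to dividing cells. *Dll1* was higher at a log2 fold change of 0.26 (limma adjusted p = 0.0332), a call lost in 8 of 17 alternatives, including those without WT sample a or c or *Mll1KO* sample a or c (limma adjusted p from 0.0718 to 0.101), and under the rod scaling it was at -0.01.

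Markers of the retinal pigment epithelium (RPE), a tissue next to the retina, varied widely among the libraries. Of its 8 markers *Ttr*, *Tyrp1*, *Dct* and *Pmel* were listed, whereas *Rpe65*, *Best1*, *Tyr* and *Lrat* were not. Their summed RPKM was 201.9, 101.2 and 308.0 in WT samples a to c and 87.7, 187.4 and 91.2 in *Mll1KO* samples a to c, led by *Ttr*. WT sample c was the highest, and it was also the WT sample with the lowest *Cdk6* and the highest *Ccnd2*. Limma called 0 of these markers and limma-voom 0, with 1 at an unadjusted p under 0.05, the lowest being *Pmel* at -1.48 and the highest *Ttr* at -0.28. *Pmel* was called without WT sample b or *Mll1KO* sample b (-2.23 and -2.03, limma adjusted p = 0.0123 and 0.0451). *Ttr* was called without *Mll1KO* sample b (-0.54, limma adjusted p = 0.0313). Under the rod and Muller glia scalings *Pmel* was called lower (limma adjusted p = 0.00789 and 0.00143), and so was *Ttr* (limma adjusted p = 0.00756 and 0.00191). With the log2 of the RPE sum as a term, chosen after seeing the data, *Ccnd2* was at 0.39 (limma adjusted p = 0.00484) and *Cdk6* at -0.44 (limma adjusted p = 0.00607). *Ccnd3*, at 0.21, was called just under the threshold (limma adjusted p = 0.04999), while *Cdkn1b* at -0.15 was not called (limma adjusted p = 0.141). In that fit *Pmel* was at -0.36 and also called (limma adjusted p = 0.0149), though the term contains it. There 3 members and 17.9% of all genes were called.

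Promoter sequence was examined because MLL1 has a CXXC domain that binds unmethylated CpG dinucleotides. RefSeq windows of 300 bases, from 250 before to 50 after a transcription start in GRCm38.p6, were at hand for 7 of the 10 genes and not for *Ccnd1*, *Ccnd2* and *Rb1*. The letters CG, which read the same on both strands, occurred 27 times in the *Cdk6* window, 30 times in that of *Cdkn1b* and 15 and 28 times in the 2 windows of *Ccnd3*, against a median of 21 over 11412 windows of listed genes. *Cdk4* had 22, *Rbl2* had 14, *Cdkn1a* had 2 and 23, and *Cdkn2c* had 8 and 33. *Cdk6* and *Cdkn1b*, called lower, thus lay above the median, and the windows of *Ccnd3*, called higher, on either side of it. Of the windows of listed genes 67.8% held fewer CG than that of *Cdk6* and 75.6% fewer than that of *Cdkn1b*. The 100 bases before a start of each called member with a window are shown to let their CpG content be compared, with CG in capitals, on the plus strand, at chr17:47504951-47505050 for *Ccnd3*, chr5:3343793-3343892 for *Cdk6* and chr6:134920301-134920400 for *Cdkn1b*, none of them within an annotated exon. For *Ccnd3* this is the start whose window holds 15 CG, and the 100 bases before its other start, which hold 9 CG, are not shown because they overlap an exon of *Ccnd3*. The bases shown hold 5, 13 and 11 CG, a description of sequence and not of binding.
*Ccnd3*: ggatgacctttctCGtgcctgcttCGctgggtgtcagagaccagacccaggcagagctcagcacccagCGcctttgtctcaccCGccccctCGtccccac
*Cdk6*: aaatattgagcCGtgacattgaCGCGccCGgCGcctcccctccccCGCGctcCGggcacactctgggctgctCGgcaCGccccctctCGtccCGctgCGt
*Cdkn1b*: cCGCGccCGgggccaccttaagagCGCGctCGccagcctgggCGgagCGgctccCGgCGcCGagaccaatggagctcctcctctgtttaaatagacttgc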

How the data were processed

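The authors deposited RPKM (reads scaled to gene length and library total) of 3 *Mll1KO* and 3 WT retinas, made per the labels with STAR 2.0.4b, featureCounts 1.45 and edgeR 3.17.9 on mm10. Their comparison columns, with fold change, mean level, p-value and false discovery rate, were not used. For 59 gene IDs in more than 1 of 11404 lines the first line was kept, and 18 symbols turned into dates were restored. Whole read counts were recovered, with library totals of 17961097 to 23836033. Genotypes were compared with limma 3.58.1 (R 4.3.3, variance trend) on log2(RPKM + 1), two-sided, and called at 0.05 after the Benjamini-Hochberg correction of p-values for 11339 genes. Alternatives were pseudocounts of 0.1 and 5, 5 scalings, limma-voom, a mean RPKM of at least 1, a replicate block, all lines kept, each library left out and, chosen after seeing the data, a pigment epithelium term. Named genes were the members, *Kmt2a*, the genes called in each gene list (every called gene where 5 or fewer were called), and the most abundant, highest and lowest gene of each marker list. Members and lists were chosen with earlier results of these data known. Positions are from GENCODE on GRCm38 and promoter sequences from RefSeq on GRCm38.p6. Some genes that the rule for named genes takes are not reported here.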

Additional observations from a re-analysis of the deposited data

How the results depend on the processing

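Against 2643 genes and 4 members called with library totals, equal sums over rod genes gave 9747 genes and 7 members, and equal sums over Muller glia genes 9326 genes and 7 members. Leaving out 1 library gave 1704 to 2536 genes and 0 to 3 members. TMM, RLE and upper-quartile factors, the replicate block and the pigment epithelium term, which was chosen after seeing the data, each gave 3 members, beside 21.3%, 21.2%, 21.3%, 19.8% and 17.9% of all genes, *Cdkn1b* being the one lost, with an adjusted p of 0.0596 in the replicate block. Replicate letters did not pair libraries across genotypes, since 0 of 6 libraries correlated best with the library of their own letter. Of the 55 genes taken by the rule for named genes, which does not take those named after their values were seen or as uncalled genes of a gene list, 39 were called, and 23 of these were called in all 17 alternatives run for each gene, that is in each of the 18 but the one with all lines kept. Of the 16 not called, 14 were called in some alternative.

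Among these 55 genes and the listed mitosis genes signs reversed as follows, and the cause was not tested. The rod and Muller glia scalings shift all genes down, moving the median log2 fold change from -0.03 to -0.31 and -0.27. A sign reversed under them is thus not a change particular to that gene. *Ccnd3* lay 0.22 above this median with library totals and 0.23 above it under both scalings. With the rod and Muller glia scalings the log2 fold changes were -0.076 and -0.043 for *Ccnd3*, -0.26 and -0.22 for *Rbl2*, -0.077 and -0.040 for *Btg2*, -0.094 and -0.058 for *Cdk19*, -0.24 and -0.21 for *Pcp2*, -0.26 and -0.22 for *Gja1*, -0.099 and -0.070 for *C1qc*, and -0.17 and -0.14 for *Ccna2*. *Dll1* was at -0.011 with the rod scaling. Of the mitosis genes, *Plk1* was at -0.056 and -0.028 and *Mad2l1* at -0.24 and -0.21 with these scalings, *Cenpe* at -0.0088 with the rod scaling, and *Mad2l1* at -0.022 with the pigment epithelium term and at -0.015 and -0.020 without WT sample c or *Mll1KO* sample c. *Gnb3* was at 0.018, 0.021 and 0.020 with TMM, RLE and upper-quartile factors, and *Ttr* at 0.061 with the pigment epithelium term. Leaving out 1 library gave ranges that cross 0, from -0.081 to 0.0056 for *Ccnd1*, -0.17 to 0.030 for *Cdkn1a*, -0.043 to 0.0091 for *Gnb3*, -0.0032 to 0.13 for *Pcp2*, and -0.088 to 0.23 for *Gja1*. *Cdk6* had 108 to 227 reads per library and a standard error of 0.09, against 131 to 233 reads and 0.05 for *Mcm6*, and the part of depth in this was not tested.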
